A study of Mus musculus with 6 samples.

Results

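The genes described here encode the proteins of the cytosolic ribosome. They were the rows of the count table whose symbol was Rpl or Rps followed by a number and optional letters, Rplp0 to Rplp2, or Rpsa, which gave 86 of the 40803 mouse genes, 53 of the large and 33 of the small subunit. Rows with a -ps suffix, which are pseudogenes, fell outside the rule. The cytosolic ribosome joins a small subunit, which reads the mRNA, to a large subunit, which forms the peptide bond. Its proteins are made in matched amounts, and most of their mRNAs begin with a stretch of pyrimidines (a terminal oligopyrimidine or TOP motif) through which the mTOR kinase and the RNA-binding protein LARP1 control translation. Hepatocytes hold many ribosomes because the liver makes most of the proteins of the plasma.

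Liver RNA was sequenced from male C57BL/6J mice that received 1 of 2 recombinant adeno-associated viruses of serotype 8 at about 6 weeks of age and were killed 4 weeks later, fed normally. The rAAV8-sh-scramble group (scramble) carried a hairpin RNA with no intended target and the rAAV8-sh-Hnf1aos1 group (knockdown) a hairpin against the long non-coding RNA Hnf1aos1, with 3 mice in each. The hairpins were driven by a U6 promoter, which is active in any cell the virus enters, and both viruses also carried EGFP. No group without virus was sequenced beside them.

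Gene counts summed to 14704746 to 19462398 per library. Hnf1aos1 itself had 512, 491 and 620 normalized counts in scramble mice. Knockdown mice had 278, 258 and 433, all lower, with a log2 fold change of -0.74. The adjusted p was 0.0625 in edgeR, above the threshold of 0.05 used for calls, and under it at 0.00326 in DESeq2, 0.0418 in limma voom, 0.00564 in edgeR without a filter and 0.0138 with the replicate block. Hepatocyte markers (8 of 9 listed had a row) summed to ranges that overlapped between the groups, and edgeR called 0 of the 8 (3 higher at an unadjusted p under 0.05) and DESeq2 2, Apoa1 and Apob, both higher. Macrophage markers did not overlap, with summed normalized counts of 3392 to 4111 in scramble and 4412 to 5521 in knockdown livers. Of these markers 8 of 8 were above 0, and edgeR called 3 higher (Adgre1, Clec4f and Lyz2). DESeq2 called 4 higher, Clec4f, Marco, Lyz2 and Cd5l, but not Adgre1 (adjusted p 0.0760). In edgeR Adgre1 was called in 1 of 6 fits that left out 1 mouse. Neutrophil markers summed to 2.20 to 4.40 against 10.9 to 21.9 normalized counts, with none of 4 passing the filter and Ly6g at 0 in every library. Lymphocyte, endothelial, stellate and cholangiocyte sums overlapped, and edgeR called 0 of these markers. Above 0 were 6 of 7 lymphocyte, 1 of 5 endothelial, 0 of 5 stellate and 2 of 3 cholangiocyte markers tested, beside 49.9% of all genes. The part of these cells in the ribosomal protein values was not tested. In bulk liver a different number of cells of a type and a different amount of RNA per cell cannot be told apart.

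Of the 86 genes, 82 passed the filter on low counts (49 large, 33 small). The other 4 are copies with little or no signal in these livers. Rpl10l, a testis-expressed copy of Rpl10, had 0 counts in all 6 libraries, which allows up to 3 counts in each. Rpl3l, a copy of Rpl3 known from heart and skeletal muscle, averaged 0.453 TPM, Rpl39l 1.13 TPM and Rpl6l 0.384 TPM. TPM scales a count by gene length and by library, so it allows levels to be compared between genes.

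Levels differed widely among genes whose proteins the ribosome mostly holds in equal number. Of the 86 genes, 79 averaged at least 10 TPM over the 6 libraries and 51 at least 100 TPM, and within the 79 the highest level was 52.4 times the lowest, with a median of 153 TPM. The median was 142 TPM for large and 172 TPM for small subunit genes. The highest levels were those of Rpl10 at 605 TPM, Rps2 at 591 TPM, Rplp1 at 472 TPM, Rpl7 at 345 TPM and Rpl4 at 341 TPM. Rps15a had the lowest level of the 79, 11.5 TPM, and also the greatest annotated length, 6.26 times the median of these genes as derived from the ratio of its counts to its TPM. Unique alignment can lower the counts of any of these genes that has near-identical retrocopies.

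The ribosomal protein genes took between 0.498% and 0.552% of all gene counts in each mouse. The shares were 0.498%, 0.547% and 0.4995% in scramble replicates 1, 2 and 3 and 0.552%, 0.546% and 0.551% in knockdown replicates 1, 2 and 3, with 95% Wilson intervals of at most 0.00367 percentage points to either side (counting error only). Scramble replicate 2 lay among the knockdown mice, so the groups overlapped, and the means were 0.515% ± 0.0279 (SD, n = 3) and 0.550% ± 0.00315 (SD, n = 3). The knockdown mice lay close together and the scramble mice further apart. TMM is a scaling that sets the typical gene to no change. On TMM normalized counts the sums were 84394, 92927 and 80787 in scramble and 94848, 97361 and 97074 in knockdown mice. On this scale the groups did not overlap, and the knockdown mean was 12.1% higher.

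**Figure D1:**
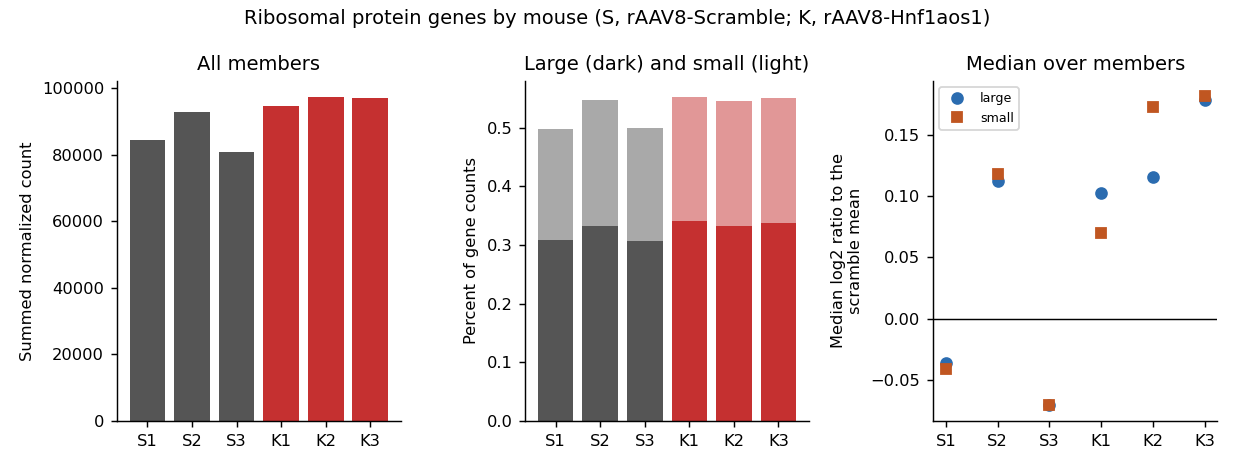
Ribosomal protein genes in each mouse (S1 to S3 scramble, K1 to K3 knockdown): summed normalized counts, percent of all gene counts by subunit, and the median over genes of the log2 ratio to the scramble mean for large (circles) and small (squares) subunit genes. Scramble replicate 2 had a share of 0.547%, among the knockdown mice, and scramble replicate 3 had the lowest medians of the 6.

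Few single genes passed the test, and those that did rose. With edgeR's quasi-likelihood test and Benjamini-Hochberg adjustment over all 16327 genes tested, Rpl9, Rps26 and Rps15a were called higher after knockdown and 0 of the 82 were called lower, where an unadjusted p under 0.05 was reached by 21 higher and 1 lower. DESeq2 called 5 higher (3.82% of all genes) and 0 lower, and edgeR without a filter 6 higher (3.16% of all genes) and 1 lower, Rpl32l (3.75%). The 3 calls are 3.66% of the genes described here, beside 3.09% of all genes called higher and 3.23% called lower, so the share of calls was near the background. At an unadjusted p under 0.05, 12.0% of all genes were higher and 11.4% lower.

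The differences were small and leaned one way. Of the 82 genes, 65 (79.3%) had a log2 fold change above 0, beside 49.9% of all genes. The median was 0.14 (quartiles 0.02 to 0.22), beside -0.00040 over all genes, and 30 genes lay between -0.1 and 0.1. The 3 mice of each group did not overlap for 28 higher genes (34.1%, beside 15.2% of all genes) and for 1 lower gene (13.7% of all genes). The 65 genes above 0 were all among the 79 with at least 10 TPM. Among the 79 with at least 100 normalized counts, log2 fold changes ran from -0.21 to 0.52 with standard errors of 0.079 to 0.18, and the median standard error over the 82 genes was 0.097. The genes are counted in the same 6 mice and are not independent of each other, and these counts and medians are descriptions without a test.

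**Figure D2:**
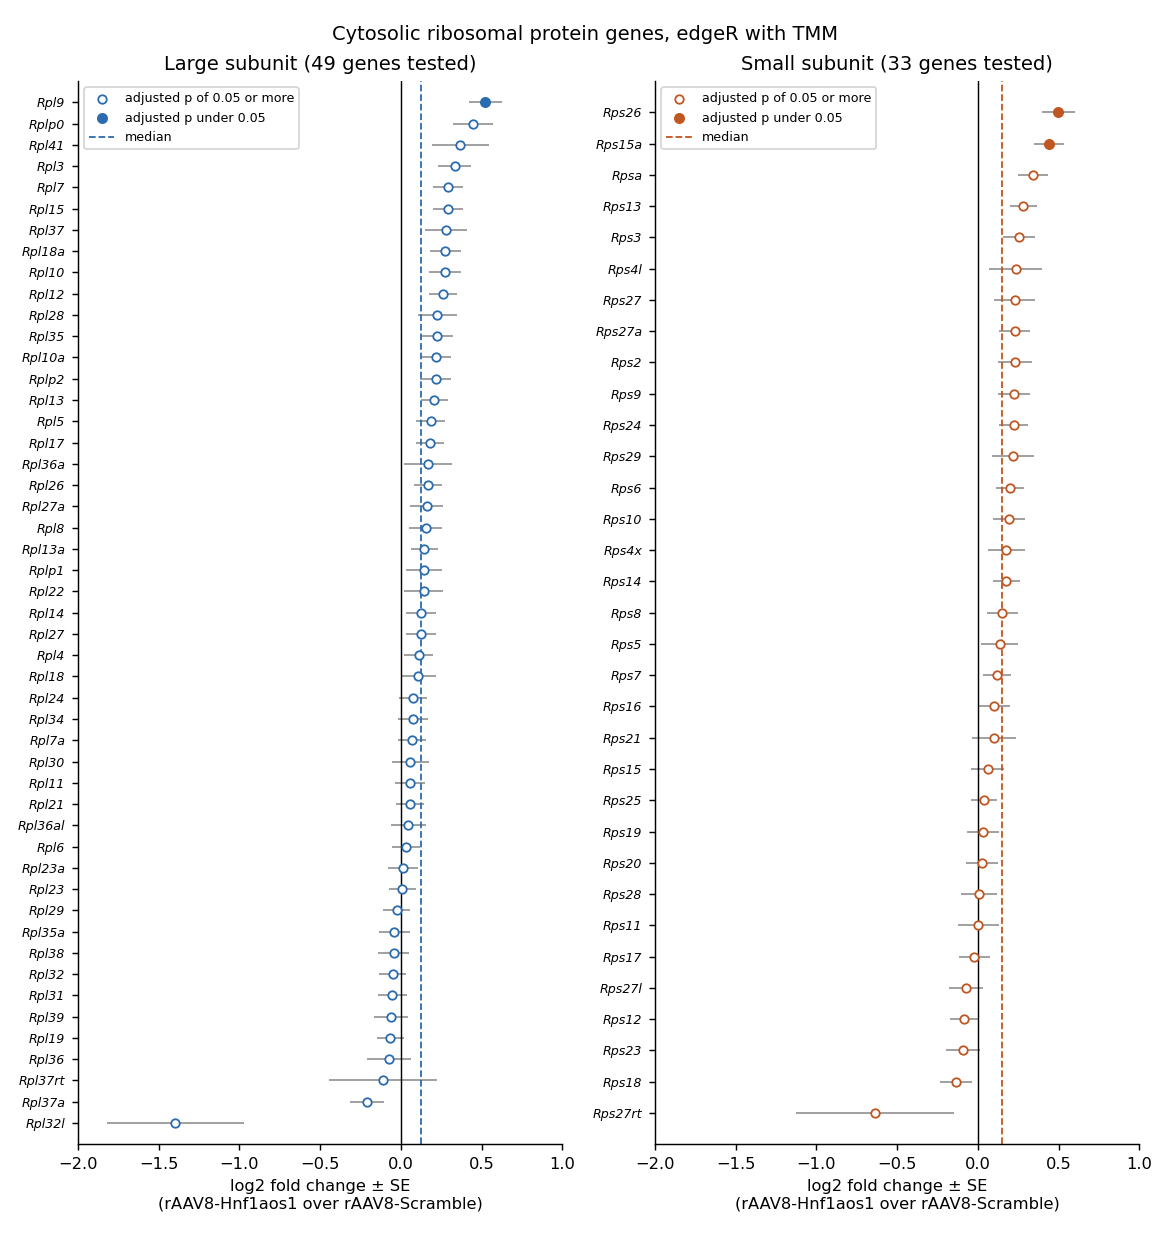
Log2 fold change of knockdown over scramble with its standard error for the 49 large and 33 small subunit genes tested, filled where the adjusted p was under 0.05. Most points lie right of 0, the 3 filled ones (Rpl9, Rps26, Rps15a) lie furthest right or next to it, and Rpl32l and Rps27rt, with few counts, lie furthest left.

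The median depended on single mice. Against the scramble mean, the median log2 ratio over the genes was -0.04, 0.11 and -0.07 in scramble replicates 1, 2 and 3 and 0.10, 0.15 and 0.18 in knockdown replicates 1, 2 and 3. Scramble replicate 2 (0.11) thus stood above knockdown replicate 1 (0.10). Scramble replicate 3 was the lowest of the 6 mice for 44 of the 82 genes and knockdown replicates 2 and 3 the highest for 22 and 24. The same counts over all genes are not given, so these ranks cannot be read as particular to the ribosomal protein genes. Without scramble replicate 3 the median was 0.09 and 0 genes were called. Without scramble replicate 2 it was 0.20 with 3 called, and without knockdown replicate 3 it was 0.13 with 6 called. The share of all genes called in these fits is not given, so the numbers called cannot be read as particular to these genes.

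Sequences around the transcription start are shown for the called genes and for Rps18, which had a log2 fold change of -0.14, because the pyrimidine stretch at the start is the feature through which the mRNAs of this family are best known. They run from 80 bases before to 20 bases after the RefSeq start (build GRCm38.p6), 5′ to 3′ on the gene's strand, with capitals marking unbroken runs of at least 8 pyrimidines within 20 bases of the start.
Rps26 (chr10:128626487-128626586, minus strand): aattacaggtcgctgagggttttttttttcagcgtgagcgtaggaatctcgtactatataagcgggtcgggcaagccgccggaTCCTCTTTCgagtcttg
Rps15a (chr7:118116128-118116227, minus strand): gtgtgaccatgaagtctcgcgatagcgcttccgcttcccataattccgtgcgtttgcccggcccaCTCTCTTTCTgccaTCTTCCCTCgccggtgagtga
Rpl9 (chr5:65391412-65391511, minus strand): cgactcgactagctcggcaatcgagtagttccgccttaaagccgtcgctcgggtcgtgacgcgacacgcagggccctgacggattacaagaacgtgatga
Rps18 (chr17:33955646-33955745, minus strand): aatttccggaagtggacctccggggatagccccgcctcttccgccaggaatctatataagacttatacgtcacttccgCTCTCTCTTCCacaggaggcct
Rps26 held a run of 9 pyrimidines, Rps15a a longest run of 10 and Rps18 a run of 11. In Rpl9 no run of at least 8 was found at the RefSeq start. Rplp0, Rpsa and Rpl37a, whose sequences were also examined and are not shown, had no such run either. A RefSeq promoter was given for 64 of the 86 genes, 61 of them tested, and 30 of the 61 (49.2%) had such a run, beside 19.4% of all genes tested. The median log2 fold change was 0.14 in the 30 with a run (2 called) and 0.12 in the 31 without (1 called). The window also took in bases before the start, and runs shorter than 8 were not counted. This split therefore does not separate mRNAs with a TOP motif from mRNAs without one. Within 300 bases around the start and on both strands, the ETS motif CCGGAAGT was found in 19.7% of the 61 and 7.72% of all genes tested, and the YY1 motif AAGATGG in 14.8% and 8.06%. The SP1 motif GGGCGG was found in 59.0% and 60.2%, the CCAAT box in 34.4% and 42.4%, the TATA box TATAAA in 11.5% and 10.8%, and the E-box CACGTG, read by MYC, in 9.84% and 10.7%. A match here is a run of letters and says nothing of binding.

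Rpl9, a large subunit protein near the site where translation factors bind, showed the greatest rise. Normalized counts were 844, 945 and 775 in scramble and 1235, 1144 and 1311 in knockdown mice. Every knockdown mouse was above every scramble mouse, with means of 855 ± 85.3 and 1230 ± 83.3 (SD, n = 3), a log2 fold change of 0.52 (SE 0.099) and an adjusted p of 0.0137. It was called in 5 of the 6 fits that left out 1 mouse and lost its call without scramble replicate 3 (adjusted p 0.102).

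Rps26, a small subunit protein at the mRNA exit channel and a gene mutated in Diamond-Blackfan anaemia, was the second of the called genes. Its normalized counts were 541, 657 and 569 in scramble and 773, 817 and 902 in knockdown mice. The groups did not overlap, and the log2 fold change was 0.50 (SE 0.10, adjusted p 0.0205). Rps15a had 399, 409 and 386 normalized counts against 566, 503 and 549. Its scramble mice differed little (398 ± 11.7, SD, n = 3), and its log2 fold change was 0.44 (SE 0.093, adjusted p 0.0233). With 1 mouse left out, Rps26 was called in 3 and Rps15a in 2 of 6 fits.

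The next genes did not pass the threshold. Rplp0, which anchors the P-stalk that recruits elongation factors and often serves as a reference gene in quantitative PCR, had 2583, 3036 and 2098 normalized counts in scramble and 3454, 3683 and 3375 in knockdown mice. The groups were apart, but the scramble mice were widely spread, and the log2 fold change was 0.45 (SE 0.12, adjusted p 0.0578). Rpsa, a small subunit protein also known as the laminin receptor, had 2907, 3048 and 2612 against 3780, 3676 and 3393 (log2 fold change 0.34, adjusted p 0.0580). DESeq2 called both. Rpl41, the shortest ribosomal protein, had 1090, 1191 and 715 against 1145, 1360 and 1363. Its groups overlapped, scramble replicate 3 stood far below the other mice, and the log2 fold change of 0.37 had an adjusted p of 0.257. Rpl3, which lies near the peptidyl transferase centre, had a log2 fold change of 0.33 (adjusted p 0.0737), and Rps13 of 0.28 (adjusted p 0.0724). In all, 8 genes had an adjusted p between 0.05 and 0.1, of which 7 were higher.

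**Figure D3:**
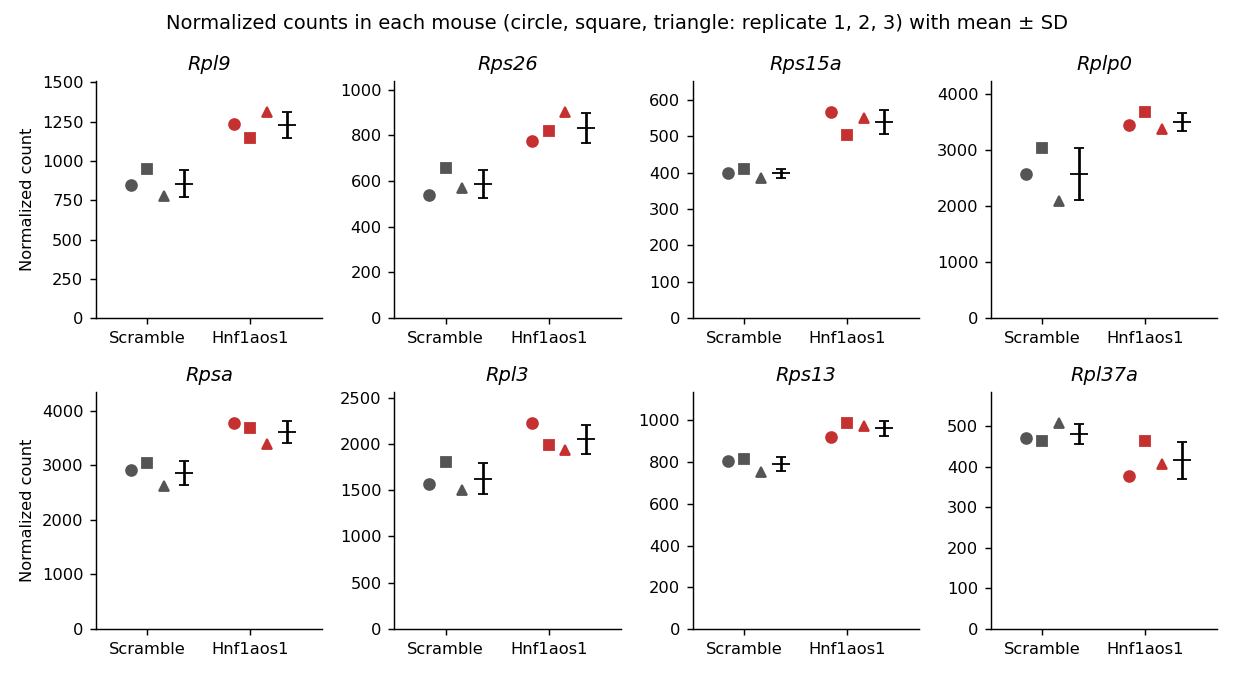
Normalized counts of 8 ribosomal protein genes in each mouse (circle, square and triangle for replicates 1, 2 and 3) with the mean and SD of each group (n = 3). For Rpl9, Rps26 and Rps15a every knockdown mouse is above every scramble mouse, and for Rpl37a the groups overlap.

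The other proteins of the P-stalk were not called. Rplp1 and Rplp2 form the dimers bound to Rplp0, and Rplp1 had 1548, 1800 and 1622 normalized counts in scramble and 1574, 2056 and 1867 in knockdown mice, which overlapped (log2 fold change 0.15, adjusted p 0.459). Rplp2 had 389, 443 and 386 against 461, 467 and 487. These did not overlap, and the log2 fold change was 0.22 (adjusted p 0.210).

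Rpl5 and Rpl11, which with 5S rRNA bind MDM2 when ribosome assembly is disturbed, were also not called. Rpl5 had 1375, 1530 and 1340 normalized counts against 1639, 1512 and 1674 (log2 fold change 0.19, adjusted p 0.246). Rpl11 had 613, 662 and 596 against 602, 659 and 687 (0.06, adjusted p 0.752). Both pairs of groups overlapped. Mdm2 itself had a log2 fold change of 0.05 (adjusted p 0.845).

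Among the small subunit genes fixed for description, Rps6, the substrate of S6 kinase, had 1839, 1978 and 1683 normalized counts in scramble and 2071, 2152 and 2087 in knockdown mice. The groups did not overlap, and the log2 fold change was 0.20 (adjusted p 0.209). Rps27a, which is made as a fusion with ubiquitin, had 325, 345 and 342 against 378, 398 and 409 (0.23, adjusted p 0.180), again without overlap. Rps9 had 1222, 1443 and 1192 against 1443, 1569 and 1491 (0.22, adjusted p 0.191), with scramble replicate 2 reaching the lowest knockdown mouse. Rps19, the gene most often mutated in Diamond-Blackfan anaemia, had 669, 774 and 696 against 665, 781 and 737, which overlapped throughout (0.03, adjusted p 0.889). For the genes with the highest levels beside Rplp1, the log2 fold change was 0.28 for Rpl10, 0.23 for Rps2, 0.29 for Rpl7 and 0.11 for Rpl4, with adjusted p of 0.117, 0.218, 0.0842 and 0.481.

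At the lower end, the values came mostly from genes with few counts. Rpl32l had 17.4, 19.8 and 35.2 normalized counts in scramble and 13.4, 7.60 and 6.34 in knockdown mice. It was the 1 gene whose groups stood apart with the knockdown lower (log2 fold change -1.40, SE 0.42, adjusted p 0.0750). Rps27rt had 9.23, 15.4 and 12.1 against 2.86, 10.5 and 9.96 (-0.64, adjusted p 0.464) and Rpl37rt 18.5, 39.5 and 34.1 against 24.8, 23.8 and 36.2 (-0.11, adjusted p 0.878). These are close copies of Rpl32, Rps27 and Rpl37, so reads may be shared or lost between copy and parent. The parents had log2 fold changes of -0.05, 0.23 and 0.28. Among well-counted genes the lowest was Rpl37a, with 471, 463 and 509 normalized counts in scramble and 377, 465 and 407 in knockdown mice. The groups overlapped by knockdown replicate 2, and the log2 fold change was -0.21 (adjusted p 0.258). It was followed by Rps18, a protein of the head of the small subunit (-0.14, adjusted p 0.443).

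Paralogs inside the symbol rule with measurable signal were not called by edgeR after the filter on low counts, nor were the relatives set beside them. Without the filter edgeR called Rpl32l lower (adjusted p 0.0246). Rps4l, on an autosome, had 108, 105 and 102 normalized counts against 104, 145 and 121 (log2 fold change 0.23, adjusted p 0.429), and Rps4x, on the X chromosome, had a log2 fold change of 0.18 (adjusted p 0.373). Rps27l, a p53-responsive copy of Rps27, had 588, 587 and 541 against 474, 549 and 607 (-0.07, adjusted p 0.724). Rpl36al and Rpl36a had log2 fold changes of 0.05 and 0.17 (adjusted p 0.829 and 0.530). The pairs were not tested against each other.

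Large and small subunit genes had medians close to each other. The median log2 fold change was 0.13 over the 49 large subunit genes, with 38 above 0 and 1 called, and 0.15 over the 33 small subunit genes, with 27 above 0 and 2 called. Groups did not overlap for 17 large and 11 small subunit genes that were higher, beside 15.2% of all genes. For lower genes the groups were apart for 1 large and 0 small subunit genes, beside 13.7% of all genes. Of all genes, 3.09% were called higher. The difference of the medians, large minus small, was -0.02 and changed sign with 1 mouse left out. The ratio of summed large to summed small subunit TPM was 1.54, 1.47 and 1.48 in scramble and 1.55, 1.48 and 1.51 in knockdown mice. It overlapped between the groups, with means of 1.498 ± 0.0373 and 1.51 ± 0.0314 (SD, n = 3).

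Genes with higher counts had higher log2 fold changes. Across the 82 genes, Pearson's r with the mean normalized count was 0.59 and Spearman's rho 0.35, and with mean TPM 0.50 and 0.32. With relative length (n = 81) they were 0.13 and 0.10. These are descriptions across genes counted in the same 6 libraries, and Rps27rt and Rpl32l, which have the fewest counts of those tested, also have the lowest fold changes.

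The ERCC spike-ins are synthetic RNAs listed in the same table, and library sizes taken from them report RNA relative to the spike rather than to the other genes. They made up 1.38% to 1.52% of the counts in scramble and 1.18% to 1.24% in knockdown libraries. On this scale 35 of the 82 genes (42.7%) were called higher, beside 18.6% of all genes, and 0 were called lower, beside 2.23%. Log2 fold changes were above 0 for 79 genes (96.3%, beside 72.9% of all genes), and the groups did not overlap, with the knockdown higher, for 56 (68.3%, beside 34.6%). The median log2 fold change was 0.34 over these genes and 0.20 over all genes, which leaves 0.13 between them, near the 0.14 found with TMM. The summed counts were 76490, 89891 and 74274 in scramble and 100505, 103730 and 105438 in knockdown mice, 28.7% higher without overlap.

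The medians of the subunits were again close on the spike-in scale, with 21 large and 14 small subunit genes called and medians of 0.32 and 0.35. On that scale 18.6% of all genes were called higher. Rpl9 had a log2 fold change of 0.72 (adjusted p 0.00268), Rplp0 of 0.64 (adjusted p 0.0101), Rpsa of 0.54 (adjusted p 0.00706), Rps6 of 0.40 (adjusted p 0.0210) and Rps2 of 0.43 (adjusted p 0.0293). Rps19 at 0.23 and Rpl11 at 0.26 were not called (adjusted p 0.157 and 0.0969), and Rpl37a was at -0.0074 (adjusted p 0.970). The 35 calls fell to 3 without scramble replicate 3, to 11 without scramble replicate 1 and to 12 without knockdown replicate 2. The share of all genes called in these fits is not given, so the fall cannot be read as particular to these genes. With library totals and no further scaling, the median was 0.07 over the ribosomal protein genes and -0.07 over all genes, with 52 genes above 0 (39.8% of all genes) and the same 3 called (1.96% of all genes called higher). Whether total RNA per spike differed because of the tissue or of the amount of spike added cannot be told apart.

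**Figure D4:**
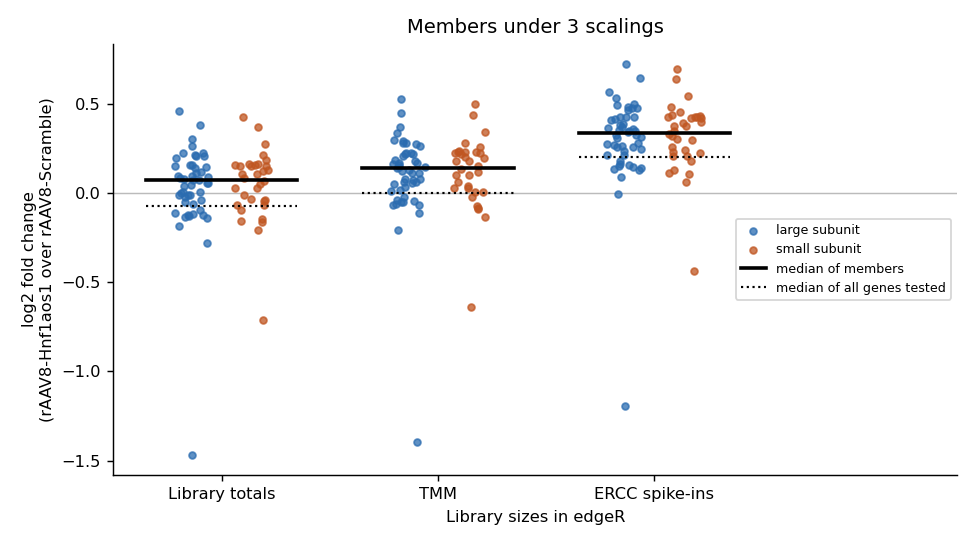
Log2 fold change (knockdown over scramble) of each ribosomal protein gene with library sizes from totals, TMM and ERCC spike-ins, with the median of these genes (solid) and of all genes tested (dotted). The solid line lies at 0.07, 0.14 and 0.34 and the dotted line at -0.07, -0.00040 and 0.20.

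Some ribosome components have symbols that the rule leaves out. Rps3a1, the gene of the small subunit protein eS1, had 1834, 1967 and 1455 normalized counts in scramble and 2520, 2416 and 2491 in knockdown mice. The groups were apart, and Rps3a1 was called (log2 fold change 0.50, adjusted p 0.0280), in 2 of 6 fits with 1 mouse left out. Fau, made as a fusion of a ribosomal protein with a ubiquitin-like protein, had a log2 fold change of 0.11, and Rack1, a scaffold on the small subunit, of 0.25 (adjusted p 0.501 and 0.112). Of the paralogs outside the rule, Rpl22l1 had 70.8, 64.8 and 68.2 normalized counts against 121, 107 and 96.0. It was called (0.67, adjusted p 0.0436, and 0.0673 in DESeq2), in 1 of 6 fits with 1 mouse left out. Rpl22l1 lost its call with voom (0.0534), library totals (0.0702), length offsets (0.05003) and the replicate block (0.0683), and kept it with GC offsets (0.0477). Rpl7l1 was at 0.03 (adjusted p 0.886). Of 23 pseudogene rows 3 were tested and 0 called by edgeR or DESeq2 (0 at an unadjusted p under 0.05), and all 23 together took about 0.001% of the counts.

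Other genes of the translation machinery were set beside them. Of 9 elongation genes, Eef1b2, the exchange factor for eEF1A, rose (log2 fold change 0.36, adjusted p 0.0383) and Eef1a2, the muscle and nerve form of eEF1A, fell by 1.64 on the log2 scale (adjusted p 0.0458) from 26.7, 65.9 and 31.9 to 16.2, 16.2 and 7.25 normalized counts. DESeq2 called both, but each was called in 1 of the 6 fits that left out 1 mouse. Eef1b2 lost its call with library totals (0.0633), length offsets (0.0650) and the replicate block (0.0521), and Eef1a2 with voom (0.0773), length offsets (0.0550) and GC offsets (0.0545). Eef1a1 and Eef2, the main elongation factors, were at 0.20 and 0.05 (adjusted p 0.318 and 0.808). Of 37 initiation factors, 31 were above 0 (49.9% of all genes), with a median of 0.17. EdgeR called 3 higher and 0 lower, beside 3.09% and 3.23% of all genes. The 3 called were Eif6 (0.65, adjusted p 0.0239), which keeps new large subunits from joining small ones, Eif2s1 (0.53, adjusted p 0.0308), the alpha subunit of eIF2, and Eif3e (0.34, adjusted p 0.0377). Of 42 genes of ribosome biogenesis and RNA polymerase I, 39 were above 0, with a median of 0.21, and 0 were called lower. The 2 called higher were Nop58 of the box C/D snoRNPs (0.58, adjusted p 0.0383) and Polr1b, the second subunit of RNA polymerase I (0.43, adjusted p 0.0333). With 1 mouse left out, Eif6 and Eif2s1 were called in 2 of 6 fits and Eif3e, Nop58 and Polr1b in 1. With library totals, Eif2s1 (adjusted p 0.0539), Eif3e (0.0696), Nop58 (0.0639) and Polr1b (0.0688) lost their calls. Eif3e also lost its call with length offsets (0.0745) and the block (0.0517). Nop58 lost its call with voom (0.0605) and length offsets (0.0582), and Polr1b with the block (0.0512). Eif6 kept its call with library totals, voom, length offsets and the block.

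Of 16 known regulators of ribosomal protein synthesis, edgeR called 0 (2 higher and 1 lower at an unadjusted p under 0.05) and DESeq2 1, Myc, with a median of -0.05. Myc, a transcription factor that drives ribosome production, had 75.9, 82.3 and 56.1 normalized counts in scramble and 123, 303 and 584 in knockdown mice. The groups did not overlap, but the knockdown mice differed widely among themselves, and the log2 fold change of 2.24 had an adjusted p of 0.138 in edgeR. DESeq2 gave 0.0100, and edgeR without knockdown replicate 1 gave 0.0137 with a log2 fold change of 2.63. Mtor, Rptor and Larp1 were at 0.01, 0.04 and 0.0049 (adjusted p 0.962, 0.835 and 0.980). Eif4ebp1, a translation repressor inhibited by mTOR, was at 0.39 (adjusted p 0.128), and Tsc1 at -0.25 (adjusted p 0.153).

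Other large complexes give a scale for these medians. The 78 mitochondrial ribosomal protein genes had a median of 0.07 with 1 called, Mrps23. It rose (0.56, adjusted p 0.0375) and was called in 2 of 6 fits with 1 mouse left out. Mrps23 lost its call with library totals (adjusted p 0.0558) and length offsets (0.0573), and kept it with DESeq2, voom and the block. The 38 proteasome genes had a median of 0.23 with 5 called higher, where 3.09% of all genes were called higher. Of the 5, Psmb8, Psmb9 and Psmb10 encode the immunoproteasome subunits, and the others were Psma4 and Psmb4. With 1 mouse left out, Psmb9 was called in 6, Psmb8 and Psmb10 in 5, Psmb4 in 2 and Psma4 in 0 of 6 fits. Psma4 lost its call with DESeq2 (adjusted p 0.0672), voom (0.0554), library totals (0.0915), length offsets (0.0850), GC offsets (0.0628) and the block (0.0747). Psmb4 lost its call with library totals (0.0526), while Psmb8, Psmb9 and Psmb10 kept theirs in each of these settings. DESeq2 also called 5 higher, with Psmd2 in place of Psma4. The 77 oxidative phosphorylation genes had a median of 0.01 and the 13 snoRNA host genes of 0.05. Neither list held a gene called by edgeR or DESeq2, and at an unadjusted edgeR p under 0.05 the first had 4 higher and 2 lower and the other 1 higher and 0 lower. No list was tested against another.

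**Figure D5:**
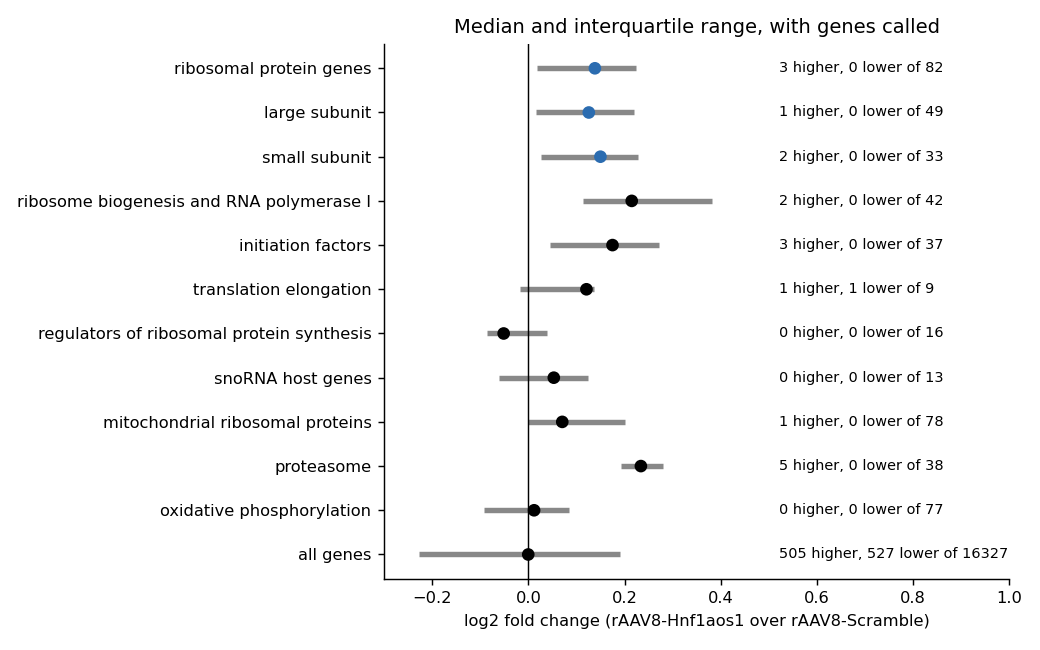
Median (point) and interquartile range (bar) of the log2 fold change in each gene list, with the number of genes called. The ribosomal protein genes (0.14) lie between the mitochondrial ribosomal proteins (0.07) and the proteasome (0.23), and all genes lie at -0.00040.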

How the data were processed

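The authors trimmed reads with Trimmomatic, aligned them with STAR and assigned unique alignments to exons with featureCounts. The deposited raw counts, not normalized, are the basis of every test. The genome build is GRCm38 in the methods and GRCm39 in the labels, and the library poly(A)-selected in the methods and depleted of rRNA in the labels. The authors also deposited TPM values, used here for levels, and normalized counts, a signal obtained by 1 factor per library, not used for any result here. A deposited comparison table holds the authors' fold changes and p-values and was not used. Strand setting and annotation release are not given in the sources used here.

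The 92 ERCC rows entered neither TMM nor the tests. Counts were fitted with edgeR 4.0.16 in R 4.3.3 (filterByExpr, TMM, robust glmQLFit and glmQLFTest, group as the only term), with Benjamini-Hochberg adjustment and calls at an adjusted p under 0.05. Alternatives were ERCC library sizes, library totals, DESeq2 1.42.0 and its size factors, limma 3.58.1 voom, no filter, a minimum mean of 50 counts, pseudogene rows added to their parents, length offsets, the replicate block, and each mouse left out. GC offsets, and length offsets combined with the block, are alternatives chosen after seeing the data. Relative lengths are counts over TPM. Gene totals of 14704746 to 19462398 leave standard errors of 0.079 to 0.18 for genes with at least 100 normalized counts. Between libraries of the same group the chi-square of the counts per gene was 7.73 to 31.9, so no library was a repeat of another. The fits were tested on simulated data.

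The genes described, the lists and the rule for naming genes were chosen with earlier results of these data known. Named were all genes called, the 5 highest and 5 lowest log2 fold changes, the 5 highest TPM, fixed genes of known role, paralogs, and up to 4 genes of each other list. Rpl3, Rps13, Rpl36a, Rps4x, Rpl32, Rps27, Rpl37, Eif3e, Psma4, Psmb4, Psmb8, Psmd2, Apoa1, Apob and the macrophage genes were named outside this rule after their values were seen. A further gene that the rule names is not reported here.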

Additional observations from a re-analysis of the deposited data

How the results depend on the processing

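The 3 calls (Rpl9, Rps26 and Rps15a) were the same genes with DESeq2 size factors, library totals, a minimum mean of 50 counts, voom, pseudogene counts added, length offsets and GC offsets. DESeq2 called 5 genes higher, ERCC library sizes 35 and the fit without a filter 6, with 1 lower (Rpl32l). Each of these kept the 3. Leaving out 1 mouse gave 0 to 6 genes called higher, with 0 lower in each case, the 0 without scramble replicate 3 and the 6 without knockdown replicate 3. The median log2 fold change was 0.34 with ERCC library sizes, 0.11 with length offsets and 0.13 with GC offsets, and 0.09 to 0.20 with 1 mouse left out. The difference of medians between large and small subunit ran from -0.050 to 0.019 with 1 mouse left out, and was above 0 without scramble replicate 3 (0.019) and without knockdown replicate 2 (0.010). Calls with ERCC library sizes ran from 3 to 50 with 1 mouse left out. The share of all genes called is not given for any fit that left out 1 mouse. Across 1518 comparisons for 85 named genes under 18 settings, 1333 kept direction and side of the threshold, 75 lost a call, 46 gained one, 64 uncalled values changed sign, and 0 called values reversed. The cause of these changes was not tested.

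With the replicate number as a block, 4 genes were called (Rplp0 added), the median was 0.14, and 36 were called on the ERCC scale. With length offsets and the block 3 were called. The share of all genes called is not given for the fits with the block. Same-numbered mice of the groups did not deviate together (r of -0.0226, 0.0231 and 0.0032), so the numbers give no pairing.

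The smallest difference called among these genes was 0.44 (Rps15a, SE 0.093), and of the 27 genes past 0.2 on the log2 scale 3 were called, so smaller differences of single genes mostly could not be called with 3 mice in each group. Genes with few counts (Rpl32l, Rps27rt, Rpl37rt) are limited by depth.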
